A study of Mus musculus with 35 samples.

Results

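The 9 immediate early genes of the AP-1 group described here were followed through male germ cells of mice that lack functional SMG6, and through chromatoid bodies isolated from such cells. They were Fos, Fosb, Jun, Junb, Jund, Egr1, Ier2, Dusp1 and Zfp36, taken by name, so that 9 of the 24411 gene rows of the deposited count tables are described, and all 9 were present and entered every test. Immediate early genes are transcribed within minutes of a growth factor, cytokine or stress signal, without new protein synthesis, and most of their mRNAs decay fast. Proteins of the FOS and JUN families pair to form AP-1, a transcription factor that binds the TPA response element. JUND is the JUN protein that many cells make without a stimulus, and mice that lack it are known for defective spermatogenesis. EGR1 is a zinc finger transcription factor, IER2 is a nuclear protein of the same early response, DUSP1 is a phosphatase that switches off MAP kinases, and ZFP36 (tristetraprolin) binds AU-rich elements in 3'UTRs and recruits deadenylases, which shortens the life of mRNAs including its own.

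SMG6 is the endonuclease of nonsense-mediated decay (NMD). Smg6-cKO mice carried floxed Smg6 alleles, in which exon 9 is removed by Cre under the Ngn3 promoter, active in germ cells from the spermatogonial stage, so that somatic cells of the testis kept the gene. Controls were littermates of genotype Smg6(fx/fx);Ngn3Cre- or Smg6(fx/wt);Ngn3Cre-, all on a mixed C57Bl/6J and SV129 background and adult, and no group received a treatment. Polyadenylated RNA of pachytene spermatocytes (Spc) and of round spermatids (RS) came from 3 cKO and 3 control libraries per cell type, after collagenase and trypsin digestion of testes and sedimentation through a BSA gradient, which enriches cells by size and leaves other cells in the fraction. Chromatoid bodies (CBs), RNA granules of round spermatids, were pulled down with an antibody against DDX4 from fixed cells of pooled mice, and their RNA without poly(A) selection came from 3 cKO and 4 control libraries. CB levels were therefore scaled apart from those of the cells.

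The 12 Spc and RS libraries held 36419197 to 47355837 counts on genes, so that 1 count was worth 0.0211 to 0.0275 CPM (counts scaled to a common total per library), and the 7 CB libraries held 2705277 to 12103906 counts, with 1 count worth 0.0826 to 0.370 CPM. These worths are before TMM scaling, and all CPM values that follow use the TMM-scaled library size. No pair of libraries within a group was a duplicate, since their counts gave chi-square values of 8.94 to 78.0 per degree of freedom in the 21 pairs. Smg6 itself was at 189 to 203 CPM in cKO RS and 143 to 235 CPM in control RS (log2 fold change -0.01, edgeR adjusted p = 0.968). Its gene count includes exons that Cre does not remove and does not check the deletion. Late spermatid markers such as Prm1 and Tnp1 summed to 1963 to 2022 CPM in cKO RS and 29684 to 39396 CPM in control RS. All 9 of these markers passed as lower in cKO RS.

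The promoters of the group carried different elements. Elements were searched in 7 RefSeq promoters of 300 bases (GRCm38.p6, from 250 bases before the transcription start), on both strands, namely those of Fos, Fosb, Jun, Junb, Jund, Dusp1 and Zfp36. Egr1 and Ier2 were not searched, and neither were sites outside these 300 bases. TGACG, the core of the cAMP response element (CRE) that CREB binds, was in 4 of the 7 (Fos, Fosb, Junb, Dusp1) and in 20.8% of all 32851 promoters, and the whole palindrome TGACGTCA, which contains TGACG on each strand, was in Dusp1 alone among the 7 and in 1.79% of all. The CArG box, to which serum response factor binds, was found in Zfp36 (1.63% of all promoters) and the EGR site GCGNGGGCG in Fosb and Zfp36 (5.55%). TGANTCA, a pattern wider than the TPA response element that it includes, was in none of the 7 (7.81%). None of these elements was found in Jun, which rose in cKO RS, or in Jund, which fell. The windows below show 1 element for each promoter in which one was found, 5' to 3' on the strand of the gene, with the element in capitals. These 5 genes all rose in cKO RS, and a link between element and change was not tested. The windows only describe their letters.
Fos, CRE core at -66 to -62, chr12:85473812-85473840, plus strand: agttccgcccagTGACGtaggaagtccat
Fosb, CRE core at -60 to -56, chr7:19310089-19310117, minus strand: tggagttgcgggTGACGcaagcgcggggg
Junb, CRE core at -106 to -102, chr8:84978838-84978866, minus strand: gcttcctgacagTGACGcgagccgcctcc
Dusp1, CRE at -143 to -136, chr17:26508597-26508626, minus strand: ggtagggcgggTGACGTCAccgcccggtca
Zfp36, CArG box at -58 to -49, chr7:28379267-28379296, minus strand: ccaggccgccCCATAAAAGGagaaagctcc

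AU-rich elements, the sites that ZFP36 binds, were searched as TATTTAT in the 3'UTR of 1 annotated transcript per gene (GENCODE vM21, the principal one where marked). Of the 9 genes 6 had at least 1, against 26.9% of 21020 protein-coding genes, and 3 (Fos, Dusp1 and Zfp36) had 2 or more, against 9.995%. Dusp1 and Zfp36 each held 3, Fos 2, and Fosb, Jun and Jund 1. No match was found in Junb, Egr1 or Ier2. The 3'UTRs were 485 nt (Junb) to 2145 nt (Fosb) long, with a median of 774 nt beside 897 nt for all genes. The transcript used had a single exon, and so no exon junction, for 4 of the 9 genes (Jun, Junb, Jund and Ier2). This was so for 4.74% of protein-coding genes. For Junb the annotated exons of the gene cover 2301 nt, beside 1809 nt in that transcript. The windows below show 1 element of each mRNA with 2 or more, together with that of Jund, the gene that moved apart from the rest, with the elements in capitals.
Fos, chr12:85477102-85477131, plus strand: gtgttttcaattTATTTATtaagatggatt
Dusp1, chr17:26506159-26506188, minus strand: ggagctggtcctTATTTATttaacaccccc
Zfp36, chr7:28376953-28376982, minus strand: atttatgacgacttTATTTATtgtattaag
Jund, chr8:70700358-70700387, plus strand: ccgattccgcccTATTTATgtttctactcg

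The first comparison asked how the genes differed between cKO and control RS. Of the 9, 8 were higher in cKO RS and 1, Jund, was lower. The study names the Spc and RS samples biological replicates, of cells isolated from several testes. The labels do not tie libraries to single mice, so that p-values measure the spread between libraries, part of which may be technical. A gene passed where edgeR's quasi-likelihood test gave an adjusted p of at most 0.05, and was called where the log2 fold change was also at least 1.5 in size. All 8 that rose were called, against 14.8% of the 17492 genes tested, while 38.4% of all genes passed as higher and 34.3% as lower. The libraries of the genotypes did not overlap for any of the 9, which was so for 76.9% of all genes tested. The median log2 fold change of the 9 was 2.95, beside 0.11 for all genes.

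Among the FOS genes, Fos (chromosome 12, 85473890 to 85477273, plus strand, GRCm38) was at 88.0, 56.3 and 189 CPM in cKO RS 1, 2 and 3 and at 10.3, 7.7 and 11.3 CPM in control RS 1, 2 and 3. The lowest cKO library was thus far above the highest control, and cKO library 3 stood above the other cKO libraries. The log2 fold change was 3.52 (SE 0.43, adjusted p = 0.000167), an 11.5-fold difference. Fosb (chromosome 7, 19302696 to 19310051, minus strand), the FOS relative known for its long-lived splice form in neurons, was at 74.5, 75.8 and 113 CPM in cKO and at 19.0, 8.4 and 10.9 CPM in control RS (log2 fold change 2.79, SE 0.31, adjusted p = 8.77e-05). Control library 1 was the highest of the controls for Fosb.

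The JUN genes parted. Jun (chromosome 4, 95049034 to 95052222, minus strand) was at 52.3, 37.2 and 83.1 CPM in cKO against 8.0, 5.6 and 6.8 CPM in control RS (log2 fold change 3.09, SE 0.30, adjusted p = 4.31e-05). Junb, which can pair with FOS proteins as JUN does, was at 40.5, 32.6 and 84.7 CPM against 5.5, 4.6 and 5.3 CPM (3.37, SE 0.36, adjusted p = 7.22e-05). Both rose in every cKO library and were again highest in cKO library 3. Jund (chromosome 8, 70698949 to 70700616, plus strand) was at 27.2, 24.4 and 34.7 CPM in cKO and at 55.5, 62.3 and 65.1 CPM in control RS, so that every cKO library was below every control (log2 fold change -1.07, SE 0.14, adjusted p = 0.00023).

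Egr1 (34859823 to 34864984 on the plus strand of chromosome 18) was at 60.9, 53.4 and 129 CPM in cKO RS and at 13.4, 10.6 and 10.4 CPM in control RS (log2 fold change 2.84, SE 0.34, adjusted p = 0.000136).

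Ier2 was at 13.4, 9.5 and 21.3 CPM in cKO and at 1.5, 2.0 and 2.3 CPM in control RS (log2 fold change 2.95, SE 0.33, adjusted p = 9.42e-05). The genes for proteins that end the early response rose too. Zfp36 was at 67.1, 42.9 and 110 CPM in cKO against 6.3, 5.6 and 9.1 CPM in control (3.40, SE 0.36, adjusted p = 6.83e-05). Dusp1 had the smallest rise of the 8, from 14.0, 13.7 and 16.4 CPM to 44.0, 33.1 and 74.0 CPM (log2 fold change 1.79, SE 0.27, adjusted p = 0.000552), and fell under the fold threshold, to 1.45, without cKO library 3. With that library left out, all 8 still passed as higher and Jund as lower. With library totals in place of TMM the median of all genes moved from 0.11 to 0.73, the 8 log2 fold changes were 2.41 (Dusp1) to 4.14 (Fos), and that of Jund was -0.45 (adjusted p = 0.0168).

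**Figure D1:**
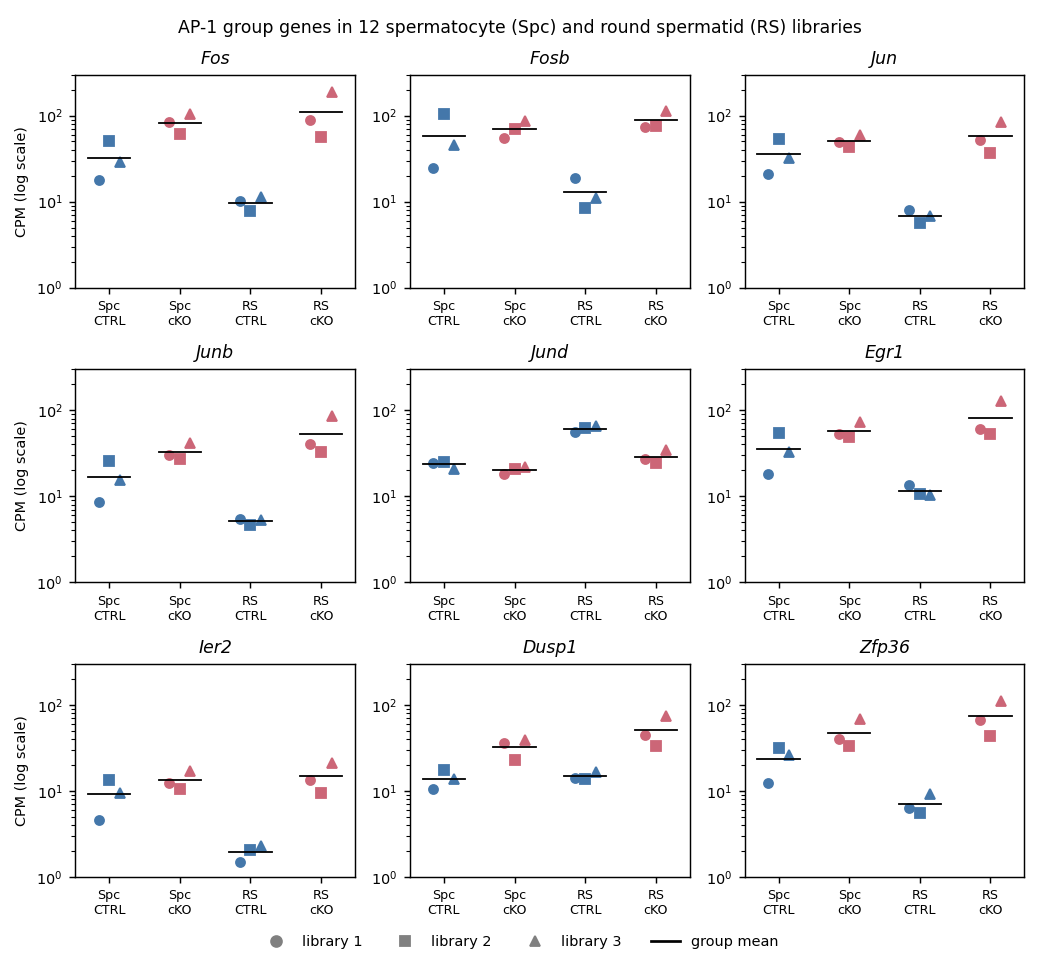
Levels of the 9 genes in CPM (log scale) in the 3 libraries of each of 4 groups (blue control, red cKO, shapes mark the library number, bars the group mean). In RS every cKO library lies above every control library for 8 genes, from 9.5 against 2.3 CPM for Ier2 upward, and below for Jund.

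Markers of other testis cells went different ways between the RS fractions. Leydig and Sertoli sums were higher in cKO RS. Peritubular myoid sums (50.3 to 70.6 CPM in cKO, 387 to 469 CPM in control) and endothelial sums (12.3 to 13.1 and 31.5 to 40.5 CPM) were lower. The 8 Leydig cell markers, Insl3 and Cyp17a1 among them, summed to 98.1, 35.9 and 359 CPM in cKO RS 1, 2 and 3 and to 11.3, 11.99 and 11.3 CPM in the controls, and 7 of the 7 tested passed as higher. Of 14 macrophage markers 12 passed as higher and 1 as lower. Their sum over all 14 was 513, 391 and 653 CPM in cKO RS 1, 2 and 3 and 638, 592 and 723 CPM in control RS, and the groups overlapped. Without Aif1, left out after its values were seen because it fell and made up most of the control sum, the sum was 439, 285 and 580 CPM in cKO against 64.5, 125 and 144 CPM in control RS. Sertoli cell markers summed to 149, 74.2 and 228 CPM in cKO and to 60.7, 66.8 and 56.2 CPM in control RS, with 7 of 9 tested higher. Amh, 1 of these 9, had no control RS library with 10 counts. It entered the test through cKO and is no evidence of direction. The Leydig and Sertoli sums and the macrophage sum without Aif1 were highest in cKO library 3 and lowest in cKO library 2. This order was shared by 8 of the 9 genes, all but Fosb, and so also by Jund, which was lower in cKO. No defining marker of these lists was at 0 in every library of an RS group. The part of these cells in the rise of the early genes was not tested, and in bulk RNA fewer cells of a type and less RNA per cell cannot be told apart.

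**Figure D2:**
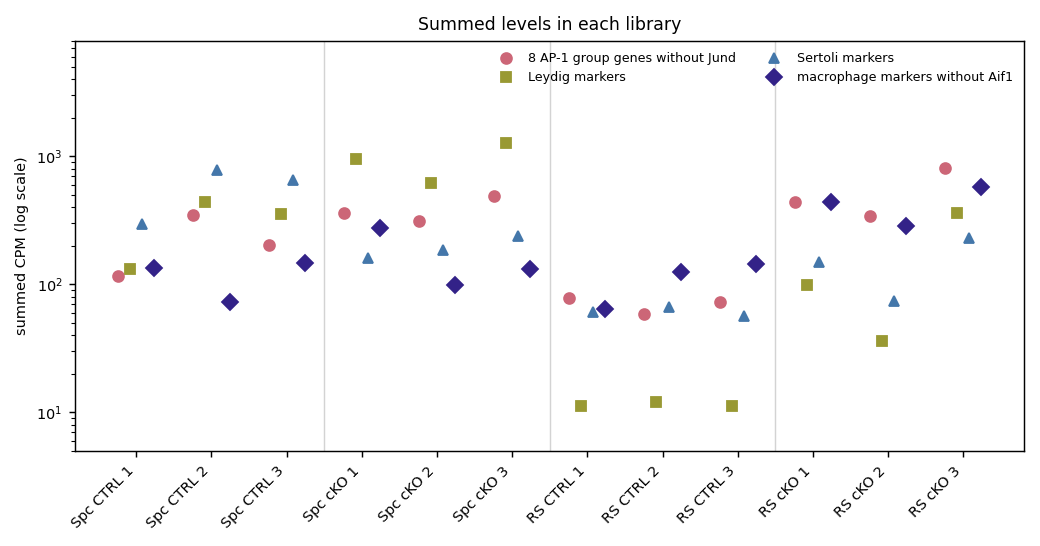
Summed levels (CPM, log scale) of the 8 genes without Jund and of Leydig, Sertoli and macrophage markers (the latter without Aif1) in each of the 12 libraries. In cKO RS all 4 sums are highest in library 3, and in control Spc library 2 is highest for the early genes (351 CPM), Leydig (437 CPM) and Sertoli markers (783 CPM). For macrophage markers without Aif1 that library is the lowest of the control Spc libraries, at 72.9 CPM.

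In Spc, the earlier cell type, 2 of the 9 genes passed, Fos and Dusp1, both higher in cKO, against 14.0% of 17321 genes that passed as higher, and neither reached the fold threshold. Fos was at 83.3, 60.9 and 103 CPM in cKO Spc and at 17.7, 50.8 and 28.8 CPM in control Spc (log2 fold change 1.24, SE 0.37, adjusted p = 0.0446). Dusp1 was at 36.1, 22.7 and 38.9 CPM in cKO against 10.4, 17.3 and 13.7 CPM in control (1.13, SE 0.25, adjusted p = 0.0187). For both, the lowest cKO library was above the highest control, as it was for Junb and Zfp36, so that 4 of the 9 had no overlap beside 48.3% of all genes. Fos lost it without cKO library 1 or 3 or control library 1 or 3 (adjusted p = 0.0629 to 0.128), and Dusp1 without cKO library 1 or 3 or control library 3 (adjusted p = 0.0519 to 0.0703).

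The other 7 did not pass in Spc. Junb was at 30.04, 26.9 and 41.6 CPM in cKO and 8.5, 25.7 and 15.5 CPM in control Spc (log2 fold change 0.88, SE 0.37, adjusted p = 0.116), and Zfp36 at 40.3, 32.7 and 68.4 against 12.3, 31.2 and 26.1 CPM (0.92, SE 0.39, adjusted p = 0.113). Jun, Egr1, Ier2 and Fosb had log2 fold changes of 0.39, 0.62, 0.44 and 0.18 with SEs of 0.31 to 0.47, and overlapped between the genotypes. Fosb was highest in a control, at 103 CPM in control library 2 against 55.0 to 86.2 CPM in cKO. Jund was at 18.3 to 21.9 CPM in cKO and 20.8 to 25.1 CPM in control Spc (log2 fold change -0.32, SE 0.14, adjusted p = 0.121).

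Control Spc library 2 was the highest of the controls for all 9 genes. Without it 5 genes passed as higher, with log2 fold changes of 1.71 for Fos, 1.34 for Junb, 1.09 for Egr1, 0.81 for Jun and 1.35 for Dusp1. That library also had the highest sums of Leydig markers (437 CPM, against 131 and 355 CPM) and of Sertoli markers (783 CPM, against 297 and 652 CPM) among the controls. Between the genotypes the marker lists went different ways in Spc. Of 14 macrophage markers 10 passed as higher in cKO and 2 as lower, with a median log2 fold change of 1.57 and, over all 14, sums of 315, 165 and 154 CPM in cKO 1, 2 and 3 and of 292, 150 and 235 CPM in control 1, 2 and 3. Leydig markers summed to 615 to 1260 CPM in cKO and 131 to 437 CPM in control, with 2 of 8 passing as higher, while 9 of 10 Sertoli markers passed as lower (14.1% of all genes did), with sums of 159 to 237 against 297 to 783 CPM. Their part in the Spc values was not tested.

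The change by genotype differed between the cell types for most of the group. In a fit over the 12 libraries the interaction was positive, with a larger change in RS, for 7 genes, against 19.0% of 18171 genes that passed as positive and 24.1% as negative. It was 2.58 for Jun (SE 0.49, adjusted p = 0.00219), 2.50 for Fosb, 2.39 for Ier2, 2.37 for Junb, 2.36 for Zfp36, 2.16 for Fos and 2.10 for Egr1, with adjusted p of 0.00603 to 0.0176 for the last 6. Jund had a negative interaction of -0.87 (SE 0.19, adjusted p = 0.00476). Dusp1 did not pass (0.54, SE 0.41, adjusted p = 0.304), and its change had passed within Spc and within RS. The scaling moved the values. With library totals in place of TMM the median of all genes moved from -0.13 to 0.58, the interactions of the 7 genes were 2.81 (Egr1) to 3.30 (Jun), and the interaction was -0.17 for Jund (adjusted p = 0.535) and 1.25 for Dusp1 (adjusted p = 0.0279), and 8087 genes were positive against 545 negative in place of 3459 and 4375. Relative to that median Jund was at -0.75. The Fosb interaction was 1.78 without control Spc library 2 (adjusted p = 0.0177). All 10 Sertoli, 5 of 14 macrophage and 4 of 5 erythroid markers also had a positive interaction that passed, beside the 19.0% of all genes. Of 8 Leydig markers (median 2.32) 0 passed in edgeR's test, 4 had an unadjusted p of at most 0.05 and 4 passed with DESeq2. The part of these cells was not tested.

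**Figure D3:**
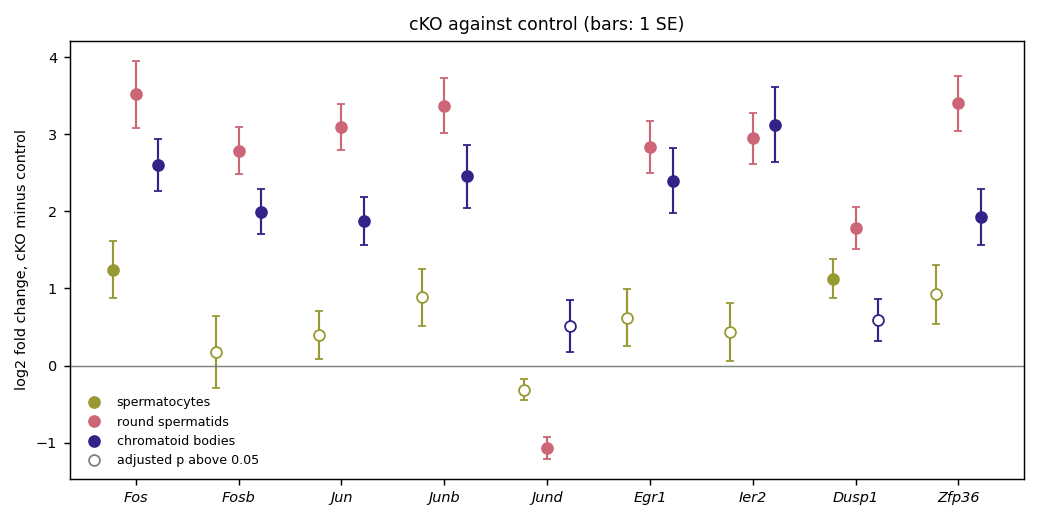
Log2 fold change of cKO against control (vertical axis) with 1 SE for each gene in Spc, RS and CBs, filled where the adjusted p was at most 0.05. RS values are 1.79 to 3.52 for 8 genes and -1.07 for Jund, Spc values lie between -0.32 and 1.24, and CB values pass for 7 genes, from 1.87 to 3.13.

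The second question was how the genes changed from Spc to RS, the meiotic to postmeiotic transition. In controls 7 of the 9 were lower in RS, all past the fold threshold, against 17.0% of 17046 genes called lower and 39.7% that passed as lower. Jund was higher, as were 36.2% of genes. Jun fell most, from 20.8, 54.0 and 32.5 CPM in Spc to 8.0, 5.6 and 6.8 CPM in RS (log2 fold change -2.53, SE 0.35, adjusted p = 0.000488). Ier2 went from 4.6, 13.4 and 9.4 CPM to 1.5, 2.0 and 2.3 CPM (-2.37, SE 0.40, adjusted p = 0.00129), and Fosb from 24.7, 103 and 45.8 CPM to 19.0, 8.4 and 10.9 CPM (-2.31, SE 0.54, adjusted p = 0.00622). Fos, Zfp36, Junb and Egr1 changed by -1.87, -1.86, -1.82 and -1.74 (SE 0.35 to 0.37, adjusted p = 0.00227 to 0.00399). All 7 had RS libraries below every Spc library, and with Jund the stages did not overlap for 8 genes, against 80.0% of all genes.

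Jund rose from 24.3, 25.1 and 20.8 CPM in control Spc to 55.5, 62.3 and 65.1 CPM in control RS (log2 fold change 1.25, SE 0.11, adjusted p = 0.000128). Dusp1 was at 10.4 to 17.3 CPM in Spc and 13.7 to 16.4 CPM in RS (-0.04, SE 0.19, adjusted p = 0.853). Without the high control Spc library 2 the 7 still passed, Fosb was at -1.62, and 3 fell under the fold threshold, Fos at -1.41, Junb at -1.38 and Egr1 at -1.29. Markers of other cells moved in both directions between these control fractions. All 8 Leydig markers (131 to 437 CPM in Spc, 11.3 to 11.99 CPM in RS) and all 10 Sertoli markers (297 to 783 and 56.2 to 66.8 CPM) passed as lower in RS. Macrophage markers passed as higher for 5 of 14 and as lower for 1, peritubular myoid markers as higher for 4 of 5, endothelial markers as higher for 5 of 7 and erythroid markers as higher for 4 of 5 and lower for 1. Their part in the fall of the early genes was not tested.

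In cKO the 9 genes lay between 0.12 and 0.65 on the log2 scale from Spc to RS. Jund alone passed, as higher in RS (log2 fold change 0.48, SE 0.16, adjusted p = 0.0391), against 18.9% of 17709 genes that passed as higher, and it was also the 1 gene of the 9 whose stages did not overlap, where 59.0% of all genes did not. The other 8 had log2 fold changes of 0.12 (Ier2) to 0.65 (Junb) with SEs of 0.22 to 0.41. With the replicate numbers as a block, which no label ties to mice, 6 of the 9 passed as higher. Fos was at 83.3, 60.9 and 103 CPM in cKO Spc and at 88.0, 56.3 and 189 CPM in cKO RS, and without cKO RS library 3 its value turned to -0.22, that of Jun to -0.19, of Ier2 to -0.24 and of Egr1 to -0.0392. Jund lost its call without cKO RS library 3 (adjusted p = 0.108) or without cKO Spc library 1 (0.086). Over the same step Leydig markers fell in cKO, from 615 to 1260 CPM in Spc to 35.9 to 359 CPM in RS, with 6 of 8 passing as lower against 26.4% of all genes, and macrophage markers without Aif1 went from 99.3 to 275 CPM to 285 to 580 CPM, with 12 of 14 of the whole list passing as higher. The control and cKO comparisons share no libraries, and the interaction given above is the test of their difference.

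**Figure D4:**
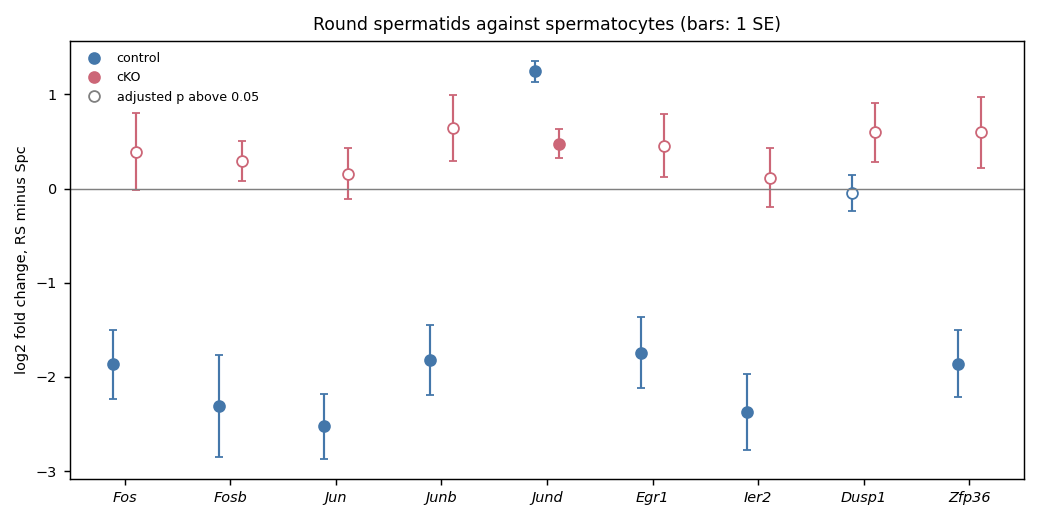
Log2 fold change of RS against Spc (vertical axis) with 1 SE for each gene in control (blue) and cKO (red), filled where the adjusted p was at most 0.05. In control 7 genes lie between -2.53 and -1.74, and in cKO all 9 lie between 0.12 and 0.65.

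In isolated CBs 7 of the 9 genes were higher in cKO, all of them called, against 5.69% of 14051 genes called higher and 18.1% that passed as higher. The 7 did not overlap between the genotypes, beside 39.7% of all genes. Ier2 changed most, from 1.0, 2.1, 2.4 and 4.0 CPM in control to 7.7, 18.8 and 39.6 CPM in cKO CBs (log2 fold change 3.13, SE 0.49, adjusted p = 0.000412). Fos was at 7.0, 7.4, 11.2 and 12.2 CPM in control and at 26.7, 59.5 and 86.1 CPM in cKO CBs (2.60, SE 0.33, adjusted p = 0.000134). Junb (2.46, SE 0.41), Egr1 (2.40, SE 0.42), Fosb (1.99, SE 0.29), Zfp36 (1.93, SE 0.36) and Jun (1.87, SE 0.31) had adjusted p of 0.000276 to 0.00138. The same cKO library was the lowest of the cKO libraries for all 7, and for Egr1 it was at 17.5 CPM, beside 14.6 CPM in the highest control. Without the cKO library that was highest for Ier2 and Junb, their log2 fold changes were 2.47 and 1.85, and both still passed.

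Jund and Dusp1 did not pass in CBs. Jund was at 39.1, 43.9 and 90.7 CPM in cKO and at 24.4, 31.2, 40.2 and 65.6 CPM in control CBs (log2 fold change 0.51, SE 0.33, adjusted p = 0.247). Whether its change differed between CBs and RS was not tested. Dusp1 was at 10.3, 20.9 and 21.6 CPM against 8.7, 11.2, 13.3 and 13.5 CPM (0.59, SE 0.27, adjusted p = 0.104), and passed without the cKO library that was lowest for the early genes (0.82, adjusted p = 0.0154). Leydig markers summed to 48.4, 307 and 468 CPM in cKO and to 17.9 to 68.1 CPM in control CBs, with 7 of 7 tested higher, and the cKO library at 48.4 CPM was the one with the lowest early genes. Macrophage markers without Aif1 summed to 31.2 to 130 CPM in cKO and 28.8 to 54.9 CPM in control CBs. Over all 14 markers the sums were 116 to 188 CPM in cKO and 185 to 248 CPM in control CBs, and 4 of the 8 tested passed as higher and 1 as lower. Sertoli markers summed to 25.4, 70.0 and 75.0 CPM in cKO and 27.3 to 37.3 CPM in control CBs, with 1 of 6 tested higher, and the Sertoli marker Fshr was at 0 in all cKO and at 0 to 0.148 CPM in control CBs. Their part was not tested.

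**Figure D5:**
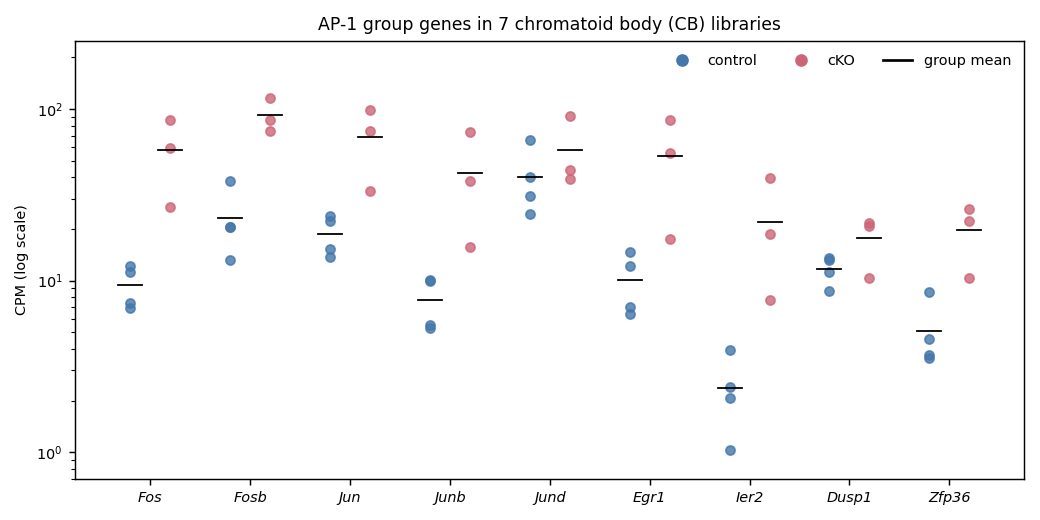
Levels in CPM (log scale) in 4 control and 3 cKO CB libraries, with bars for the group means. The genotypes are apart for 7 genes and overlap for Jund (24.4 to 65.6 CPM in control, 39.1 to 90.7 CPM in cKO) and Dusp1.

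Levels were compared between genes per kilobase of exon. In control RS Jund led with 36.5 ± 2.94 CPM per kb (mean ± SD, n = 3), apart from Dusp1 (4.44 ± 0.443) and Fos (4.15 ± 0.786), which overlapped each other. Fos was apart from the next gene. Egr1, Junb, Jun, Fosb and Zfp36 followed at 2.56 to 2.02 CPM per kb, where each overlapped its neighbour, and Ier2 was last and apart from Zfp36 (1.27 ± 0.262). In cKO RS the order began with Fos (47.2 ± 29.4 CPM per kb), and no gene was apart from its neighbour in the order, with Jund at 17.2 ± 3.18 CPM per kb in the sixth place. In control Spc the 9 lay between 14.0 CPM per kb (Jund) and 4.17 CPM per kb (Dusp1), each overlapping its neighbour, and in cKO Spc Fos alone (35.1 ± 9.05) was apart from the next, Jun (15.8 ± 2.48). In control CBs Jund again led (24.2 ± 10.8 CPM per kb, n = 4). By groups, 7 genes had the order cKO RS, cKO Spc, control Spc, control RS, from high to low, and for these the cKO groups overlapped while control RS was apart from control Spc. Jund was highest in control RS, and Dusp1 had control Spc last, overlapping control RS.

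All 16 transcripts of these genes in the table entered the RS test, where 38.9% of 57133 transcripts passed as higher and 36.0% as lower, and 14 rose and 2 fell. Jund-201 fell by 0.99 (adjusted p = 0.000539). Fos-201, the coding transcript, rose by 3.61 (SE 0.48) in cKO RS, and the processed transcripts Fos-202, Fos-203 and Fos-204 by 3.56 to 3.63. Dusp1-202, Dusp1-203 and Dusp1-204 rose by 1.81 to 1.89, and Egr1-201 and Egr1-202 by 2.90 and 2.92. Dusp1-201, a short processed transcript named after its values were seen, went from 84.3 ± 28.0 to 41.9 ± 6.43 normalized counts (log2 fold change -1.01, adjusted p = 0.0100). In Spc 5 of the 16 passed as higher, Fos-201, Fos-204 and 3 of Dusp1, against 16.1% of 57631 transcripts. In CBs 13 entered the test, some of them low in control, so that their count of calls is not given, and Jund-201 was at 399 ± 212 normalized counts in cKO and 254 ± 120 in control (0.64, SE 0.38, adjusted p = 0.209). The authors shared a read pair among the transcripts it matched, so that transcripts of a gene are not independent.

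Likeness of the 9 genes was described over the 12 Spc and RS libraries. Pearson's r of log2(CPM + 1) was 0.69 to 0.99 (median 0.96) over the 28 pairs without Jund, and -0.81 to -0.29 over the 8 pairs with it. The libraries form 4 groups, share their depth scale and are no independent points, so that these values only describe the profile. Among 13053 other genes whose mean normalized count was 100 or more, those most like Fos were Rps4x and Vstm4 (r = 0.99 each), Ftl1, Idh2 and Socs3 (r = 0.99 each). Ftl1, the light chain of ferritin, was also the gene most like Junb and Zfp36, Rhob that most like Jun, Ppp1r15a (GADD34) that most like Fosb, Pnp that most like Egr1, Ddx3x that most like Ier2 and Tpm4 that most like Dusp1. Jund was most like Cdk16 (r = 0.98).

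Of 13 other bZIP genes of the AP-1 system tested in RS 8 passed as higher and 0 as lower, where 38.4% and 34.3% of all genes passed, with a median log2 fold change of 1.04 beside 0.11 for all genes. Atf3, a stress-induced bZIP repressor, rose from 2.33 ± 0.375 to 27.0 ± 5.95 CPM (log2 fold change 3.55, SE 0.21), and Maf from 0.764 ± 0.278 to 7.04 ± 2.49 CPM (3.21, SE 0.38, n = 3 each). Macrophages, among other cells, are known to express Maf, 12 of 14 macrophage markers passed as higher in the same comparison, and their part in its rise was not tested. In CBs 5 of 8 tested passed as higher, in Spc 2 of 13, and from Spc to RS 6 of 14 passed as lower and 2 as higher in control and 4 of 13 as higher in cKO. Beside these stand 18.1%, 14.0%, 39.7%, 36.2% and 18.9% of all genes, so that the Spc count and the count of lower genes in control lay near the background.

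Of 34 other immediate early genes 23 passed as higher and 8 as lower in cKO RS (median 0.96), where 38.4% and 34.3% of all genes passed, so that the count of lower genes lay under the background. Socs3, an inhibitor of cytokine signalling, rose from 1.91 ± 0.335 to 23.1 ± 14.0 CPM (log2 fold change 3.60) and Ier3 from 0.672 ± 0.192 to 7.89 ± 2.17 CPM (3.56). Myc had 3, 4 and 4 counts in control RS and 76, 90 and 231 counts in cKO RS. With no control library at 10 counts it entered the test through cKO, so that its call, 1 of the 23, is no evidence of direction. The list was not uniform. Pim1, a kinase gene, fell from 156 ± 4.69 to 23.1 ± 1.76 CPM (-2.74), Npas4 from 6.60 ± 0.537 to 1.13 ± 0.288 CPM (-2.53) and Egr3, a relative of Egr1, from 70.7 ± 0.663 to 22.5 ± 9.92 CPM (-1.64, SE 0.28). These 3 were also higher in control RS than in control Spc, by 2.30, 1.87 and 1.83, as Jund was. In CBs 13 of 29 tested passed as higher and 4 as lower, where 18.1% and 18.4% of all genes did, and in Spc 3 of 34 as higher and 2 as lower, under the 14.0% and 14.1% of all genes.

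Of 17 kinases and factors that act upstream, 6 passed as higher and 4 as lower in cKO RS, with a median of 0.02, where 38.4% and 34.3% of all genes passed, so that the list did not exceed the background in either direction. Mapk14 (p38) rose by 1.79, Creb1 by 1.10 and Elk1 by 1.02, while Rps6ka1 fell by 1.69, Mkl2 by 1.16 and Mapk3 (ERK1) by 0.90. Among 9 other MAP kinase phosphatases 4 passed as higher, among them Dusp6 (log2 fold change 2.79), Dusp7 (1.85) and Dusp8. Dusp8 had 7, 9 and 7 counts in control RS and 49, 48 and 33 counts in cKO RS. With no control library at the count minimum, it entered the test through cKO. Its call, 1 of the 4, is therefore no evidence of direction. Another 4 passed as lower, among them Dusp4 (-2.30), Dusp10 (-2.01) and Dusp5 (-1.09). Dusp5 lost its call with library totals in place of TMM (-0.47, adjusted p = 0.0868). Dusp6, which acts on ERK, was also the one with the largest interaction of the named phosphatases, at 3.33 (adjusted p = 0.000864).

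Of 11 genes for AU-rich element binding and deadenylation 6 passed as higher and 3 as lower in cKO RS (median 0.21, beside 0.11 for all genes), where 38.4% and 34.3% of all genes passed. Of the ZFP36 relatives, Zfp36l2 rose from 3.99 ± 0.609 to 26.3 ± 13.6 CPM (2.73, SE 0.35) and Zfp36l1, at 64.7 ± 6.64 CPM in control RS, fell by 0.68 (SE 0.17). With library totals in place of TMM Zfp36l1 was at -0.06 (adjusted p = 0.744), and it lost its call without cKO RS 1 (adjusted p = 0.0511). Tial1, which binds U-rich RNA, rose by 2.32 and Cnot8, a deadenylase subunit, by 1.43, whereas Elavl1 (HuR) and Hnrnpd (AUF1) changed by -0.23 and -0.20, and both turned positive with library totals in place of TMM. These calls were also lost with transposable element rows, with summed transcript counts and without any 1 of the cKO libraries (adjusted p = 0.0790 to 0.187). Of 12 listed genes known as AP-1 or EGR targets 10 entered the test, and 4 of these, Timp1, Plaur, Cd44 and Spp1, had no control RS library with 10 counts and entered through cKO, so that the list's count of calls is no evidence of its direction and is not given. Timp1 had 34, 48 and 95 counts in cKO RS and 0, 1 and 1 in control RS, Plaur 22, 50 and 32 counts against 1, 0 and 0, and Cd44 rose from 0.212 ± 0.0716 to 2.16 ± 1.83 CPM.

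Of 10 inducible heat shock genes 5 passed as higher and 2 as lower in cKO RS (median 0.49, beside 0.11 for all genes), where 38.4% and 34.3% of all genes passed. Hspa1b rose from 0.482 ± 0.143 to 1.60 ± 0.173 CPM, Hspa8 by 1.41 and Hspd1 by 1.11, while Hsp90aa1 fell by 0.45 and Dnajb1 by 0.20, both of which turned positive with library totals in place of TMM. Dnajb1 also lost its call with summed transcript counts and without cKO RS 1 or 3 (adjusted p = 0.0591 to 0.116). Their summed level was 2616 to 2688 CPM in cKO RS and 3234 to 3378 CPM in control RS.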

How the data were processed

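Per the labels and the study's methods, the authors removed adapters with cutadapt 2.8, aligned reads to GRCm38 with STAR 2.7.1a (tools and versions from the submitters' processing notes, which list no order) and counted them per gene with TEtranscripts in strand-aware mode. The deposited gene tables hold whole-number counts, not normalized. The deposited transcript tables hold expected counts, in which the authors shared a read pair among transcripts, and they were rounded to whole numbers here. The authors' tests used DESeq2.

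The counts were tested with the quasi-likelihood test of edgeR 4.0.16 (R 4.3.3, TMM scaling, two-sided, Benjamini-Hochberg over all genes tested), on genes with at least 10 counts in at least 3 libraries (transcripts, at least 20 counts in 3), and only the libraries compared entered a fit. The interaction used the 12 Spc and RS libraries. Spc and RS levels share 1 scale and CB levels have another. Per-kilobase levels use the union of a gene's exons. DESeq2 1.42.0, library-size scaling, no count filter, transposable element rows, summed transcript counts, a replicate block and leaving out each library were the alternatives. Code was tested on simulated data.

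The members and gene lists were chosen with earlier results of these data known. All 9 members are named throughout. From each gene list the text names up to 3 genes with the highest and up to 3 with the lowest change in RS, among genes that passed and did not overlap between genotypes. One gene that this rule names is not reported here. Transcripts are named where their mean reached 100 normalized counts in some group. The 5 genes most like Fos and the 1 most like each other member, among genes with a mean of 100 or more normalized counts, are named by Pearson's r of log2(CPM + 1). CB columns were placed by group only. Small RNA libraries were not used here.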

Additional observations from a re-analysis of the deposited data

Results flagged for a closer look

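The change by genotype differed between Spc and RS for 8 of the 9 genes, by a test of the difference itself (the interaction in edgeR's fit), where 19.0% of all genes passed as positive and 24.1% as negative. The difference, RS minus Spc on the log2 scale, was 2.16 for Fos, 2.50 for Fosb, 2.58 for Jun, 2.37 for Junb, 2.10 for Egr1, 2.39 for Ier2 and 2.36 for Zfp36, and -0.87 for Jund. For these 7 positive genes cKO was above control in each of 3 RS libraries, and for Jund below in each of 3. With library totals in place of TMM the value of Jund was -0.17 (adjusted p = 0.535) and that of Dusp1 passed at 1.25 (adjusted p = 0.0279).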

How the results depend on the processing

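Of 702 values of the 9 genes under the alternatives, 306 under other settings and 366 with 1 library left out kept their direction and their side of the threshold. The counts of the 9 that passed in RS (8 higher, 1 lower) and from Spc to RS in control (7 lower, 1 higher) were the same under every alternative run, and in CBs the count of 7 was 8 without the cKO library that was lowest for the early genes. In Spc the number of the 9 that passed as higher, 2 as reported, was 1 with the replicate block and 0 to 5 with 1 library left out (0 without cKO 1, cKO 3 or control 3, 1 without control 1, 5 without control 2). From Spc to RS in cKO the number, 1 as reported, was 6 with the replicate block (Fosb, Junb, Egr1, Dusp1 and Zfp36 beside Jund, adjusted p = 0.0021 to 0.0441) and 0 to 1 with 1 library left out. With library totals in place of TMM 0 of the 9 passed with a negative interaction, and the medians of all genes were 0.73 (RS), -0.08 (CB), -0.54 (stage, control), 0.16 (stage, cKO) and 0.58 (interaction). The genes that passed as higher and lower were then 10232 and 3238 in RS (76.0% higher, 52.8% with TMM), 1587 and 2573 in CBs (38.1%, against 49.6%), 4318 and 9082 from Spc to RS in control (32.2%, against 47.7%), 4480 and 3670 in cKO (55.0%, against 41.7%) and 8087 and 545 in the interaction (93.7%, against 44.2%). In RS Elavl1 turned to 0.39, Hnrnpd to 0.42, Hsp90aa1 to 0.17 and Dnajb1 to 0.42, and Jund was at -0.45, or -1.18 relative to the median.

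With 1 library left out Fosb in Spc ranged from -0.17 (without control 1) to 0.88. Dusp1 from Spc to RS in control was 0.0269 with DESeq2 and -0.22 to 0.13 with 1 library left out, namely 0.00518 without control RS 1, 0.00462 without control RS 2 and 0.13 without control Spc 2. From Spc to RS in cKO the ranges were -0.22 to 0.71 for Fos, -0.19 to 0.39 for Jun, -0.0392 to 0.705 for Egr1 and -0.24 to 0.36 for Ier2, the lowest each time without cKO RS 3. The genes that passed in Spc numbered 1111 to 1441 higher and 753 to 1265 lower without cKO 1, cKO 3 or control 3, against 2431 and 2448. The cause was not tested.

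Replicate numbers were used as a block although no label says that a number marks a mouse. Deviations of same-numbered libraries correlated at -0.07 to 0.61 between Spc and RS in cKO, -0.30 to -0.07 in control, -0.22 to 0.36 between genotypes in Spc and -0.18 to 0.09 in RS, so that the numbers were not taken to pair libraries. With the block Fos in Spc was 1.35 (adjusted p = 0.0607). No paired analysis was possible for CBs because their columns carry no number that matches the labels.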

Other observations

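Further marker lists, some of them named above, also differed between the RS fractions. Erythroid markers summed to 67.7 to 250 CPM in cKO and 22.5 to 26.2 CPM in control RS, and 4 of 5 tested passed as higher. Peritubular myoid markers summed to 50.3 to 70.6 CPM in cKO and 387 to 469 CPM in control RS, although 1 of 6 passed as higher and 2 as lower, and endothelial markers to 12.3 to 13.1 CPM against 31.5 to 40.5 CPM, with 3 of 7 lower. Among germ cells, 6 of 8 spermatogonial markers passed as higher in cKO RS, 6 of 8 spermatocyte markers as higher and 1 as lower, and all 6 round spermatid and all 9 late spermatid markers as lower. Beside these counts stand 38.4% of all genes that passed as higher and 34.3% as lower, so that the peritubular and endothelial counts lay near the background.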
